A study of Homo sapiens with 9 samples.

Results

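The immediate early genes described here are the EGR transcription factors EGR1, EGR2 and EGR3 with their corepressor NAB2, the nuclear receptors NR4A1, NR4A2 and NR4A3, and the immediate early response genes IER2, IER3 and IER5. These 10 genes were picked by symbol from a table of 27059 genes, and all 10 were listed in it. The filter on low counts kept 9 of them among 18540 genes tested, and IER3 was the one left out. Their RNA was sequenced in 9 libraries labelled PC9/GR, lung adenocarcinoma cells that resist gefitinib, a drug that blocks the EGF receptor kinase. The libraries carry 3 labels with 3 libraries each: sh1-HUMT and sh2-HUMT, for cells with either of 2 hairpins meant to knock down HUMT, a long noncoding RNA, and shNC, for cells with the control hairpin. By the labels, all 9 cultures share the resistant line and a hairpin, and grew in RPMI medium with 10% fetal bovine serum under 5% CO2. No stimulus, starvation or drug exposure is named for any group. The table's own headers speak of A549, which is a different lung adenocarcinoma line, and of Si where the labels say sh. The labels were followed here, but this conflict over which cells the values come from is not resolved.

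Immediate early genes are transcribed within minutes of a growth signal or a stress, without new protein synthesis, and their mRNAs decay quickly. Many are switched on by the serum response factor, which binds CArG boxes together with ETS family partners that the ERK kinases phosphorylate. EGR proteins bind GC-rich sites through zinc fingers and are held in check by the NAB corepressors, of which NAB2 is induced by EGR proteins themselves. NR4A receptors act without a known natural ligand on half-site elements called NBRE. In epithelial tumour cells EGR1 is best known as a readout of EGF receptor and ERK signalling.

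HUMT, matched to LINC00857 through RefSeq synonyms, was not detectably lower in the libraries that carry its hairpins. It stood at 9.17, 9.58 and 10.1 CPM (counts scaled to a common library size, with TMM factors) in the libraries labelled sh1-HUMT. The libraries labelled sh2-HUMT had 8.75, 9.60 and 8.50 CPM, and the shNC libraries 9.36, 9.85 and 8.51 CPM. The log2 fold change was 0.06 for sh1-HUMT (adjusted p = 0.685, edgeR) and -0.05 for sh2-HUMT (adjusted p = 0.74, edgeR), so the knockdown was not visible in the targeted RNA. Every direction below is therefore one between libraries labelled sh1-HUMT or sh2-HUMT and libraries labelled shNC. Library totals ran from 21891060 to 22159921 estimated counts. Summed over 10 lung epithelial markers, the level was 4219 to 4503 CPM in sh1-HUMT, 4330 to 4373 CPM in sh2-HUMT and 5389 to 5624 CPM in shNC; NKX2-1, SFTPB and SFTPC were each under 1 CPM. The sums of 4 leukocyte markers stayed at 12.4 to 14.1, 14.2 to 15.5 and 12 to 13.6 CPM in the same order of groups. Those of 5 fibroblast markers were 21.8 to 23.2, 24.9 to 26.5 and 16.5 to 20.9 CPM, and those of 5 endothelial markers 1.62 to 2.64, 2.2 to 2.58 and 1.36 to 1.75 CPM. None of these markers was at 0 in every library. CD3E, another leukocyte marker looked for, was not listed among the genes measured. CD14, COL1A1 and PECAM1 made up most of the leukocyte, fibroblast and endothelial sums. The other markers of these lists averaged under 1 CPM. Among the epithelial markers the keratins were lower in both hairpin groups, KRT7 most in CPM, at 1440, 1411 and 2108 in sh1-HUMT, sh2-HUMT and shNC. CDH1 went the other way, at 128, 127 and 102 CPM. The part of these marker differences in the results below was not tested.

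The start regions of EGR1 and EGR2 are shown first, because these members had the most negative log2 fold changes against shNC and both hold CArG boxes there. Sequences are from RefSeq (GRCh38.p14), with a window of 250 bases before to 50 after each annotated start. The table gave 10 windows for 7 members, and EGR3, NR4A2 and IER3 had no entry. The stretch before the start of EGR1 lies at chr5:138465229-138465478 on the plus strand, that of EGR2 at chr10:62816367-62816616 on the minus strand, and capitals mark the CArG boxes.
EGR1: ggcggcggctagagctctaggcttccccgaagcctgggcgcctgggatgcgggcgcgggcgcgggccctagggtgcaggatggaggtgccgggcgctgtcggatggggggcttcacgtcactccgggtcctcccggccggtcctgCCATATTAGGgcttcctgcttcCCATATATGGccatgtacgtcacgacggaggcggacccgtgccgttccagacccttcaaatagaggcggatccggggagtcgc
EGR2: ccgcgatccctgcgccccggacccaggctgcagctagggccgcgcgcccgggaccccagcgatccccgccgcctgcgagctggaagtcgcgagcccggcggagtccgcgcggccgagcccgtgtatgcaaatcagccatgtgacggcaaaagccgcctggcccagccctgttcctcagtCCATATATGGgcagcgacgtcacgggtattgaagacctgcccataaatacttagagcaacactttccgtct

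EGR1 held 2 CArG boxes, beginning 105 and 83 bases before the start, and EGR2 held 1, beginning 71 bases before it. No other member with a window held one, and 1.29% of the 35116 promoters in the table did. The EGR site GCGNGGGCG, searched like every motif on both strands, was found in a window of EGR1, EGR2 and NAB2, against 9.43% of promoters. The heat shock element core GAANNTTC was found at IER5 alone, in 1 of the 10 member windows, against 6.77% of promoters. These stretches are shown because NAB2 is the gene that EGR proteins induce, and because heat shock genes were among the genes nearest to EGR1 in profile. The genes nearest to IER5 itself, S100P, ID3 and ID2, are not heat shock genes. Any link between this core and the level of IER5 was not tested. The NAB2 stretch lies at chr12:57089032-57089080 and the IER5 stretch at chr1:181088454-181088501, both on the plus strand; capitals mark the EGR site in NAB2, which begins 62 bases before the start, and the heat shock core in IER5, which begins 226 bases before it.
NAB2: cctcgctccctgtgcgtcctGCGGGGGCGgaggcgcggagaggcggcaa
IER5: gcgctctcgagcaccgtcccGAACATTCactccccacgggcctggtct

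The ETS core CCGGAA was present in windows of NR4A1, IER2 and IER5, against 17.2% of promoters. The cyclic AMP response element TGACGTCA, held by 1.85% of promoters, and the NBRE AAAGGTCA, held by 1.22%, matched no member window. Within 100 bases before the start, the nearer CArG box of EGR1, the one of EGR2 and the 3 ETS cores remained, the EGR site remained in NAB2 only, and the heat shock core in none. A match describes letters in a window and is not evidence of binding.

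EGR1, the founding member of its family and the one with most transcript here, was far lower in both hairpin groups. It had 6.01, 6.02 and 6.57 CPM in the sh1-HUMT libraries and 4.98, 4.71 and 5.14 CPM in the sh2-HUMT libraries, against 325, 321 and 332 CPM in the shNC libraries. All 6 hairpin libraries lay below 7 CPM and far from the 3 shNC libraries, with no overlap. EGR1 was 52.5-fold lower in sh1-HUMT (log2 fold change -5.71, SE 0.042) and 65.8-fold lower in sh2-HUMT (-6.04, SE 0.043). Behind these levels stood 134.67, 133.70 and 146.66 estimated counts in sh1-HUMT, 111, 104 and 115 in sh2-HUMT, and 6901.06, 6966.05 and 7065.08 in shNC. Because the members were selected with their levels against shNC already known, those comparisons are given throughout as descriptions without a p-value. Both also use the same 3 shNC libraries, so the values for sh1-HUMT and sh2-HUMT are not independent of each other. In bulk libraries, fewer cells that express a gene and less of its RNA per cell cannot be told apart.

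EGR2, a zinc finger factor known from myelination and lymphocyte activation, was close to silent in both hairpin groups. It had 2, 2 and 2 counts in sh1-HUMT and 1, 4 and 2 in sh2-HUMT, against 402, 383 and 384 counts in shNC. Summed over 3 libraries, 6 counts in sh1-HUMT stood against 1169 in shNC, a depth-scaled ratio of shNC to sh1-HUMT of 196 with a counting interval of 89.9 to 536 (95%). The 7 counts of sh2-HUMT gave 168 (81.3 to 419). With so few counts in the hairpin groups, the size of the difference is known only within these intervals, which cover counting error alone.

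EGR3, which EGR1-type signals induce with a short delay in lymphocytes and neurons, was low everywhere and lower with either hairpin. Its counts were 8, 6 and 4 in sh1-HUMT and 4, 4 and 6 in sh2-HUMT, against 69, 71 and 83 in shNC. The ratio of shNC to sh1-HUMT was 12.5 (counting interval 7.71 to 21.4) and that of shNC to sh2-HUMT 16.0 (9.35 to 29.8). The groups did not overlap. EGR4, the remaining paralog, did not pass the filter, with 1, 3 and 16 counts over the libraries of sh1-HUMT, sh2-HUMT and shNC. Its ratio of shNC to sh1-HUMT was 16.1 with an interval of 2.5 to 676, and that of shNC to sh2-HUMT was 5.36 (1.54 to 28.7).

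NAB2, the corepressor that binds EGR1, EGR2 and EGR3, showed little of this. It stood at 38.2, 40.5 and 40.5 CPM in sh1-HUMT and 38.6, 37.7 and 39.2 CPM in sh2-HUMT, against 44.4, 46.9 and 42.6 CPM in shNC. The ranges did not overlap, but the shift was small, with log2 fold changes of -0.17 (SE 0.046) and -0.21 (SE 0.046). The paralog NAB1, with the same role, gave -0.07 in sh1-HUMT (adjusted p = 0.217, edgeR) and -0.02 in sh2-HUMT (adjusted p = 0.807, edgeR). On the per-length scale, the ratio of EGR1 to NAB2 was 0.168 ± 0.0144 in sh1-HUMT, 0.146 ± 0.00464 in sh2-HUMT and 8.13 ± 0.444 in shNC (ratio of FPKM, SD, n = 3 each). EGR1 transcript therefore exceeded that of its corepressor in shNC and lay below it in both hairpin groups.

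**Figure D1:**
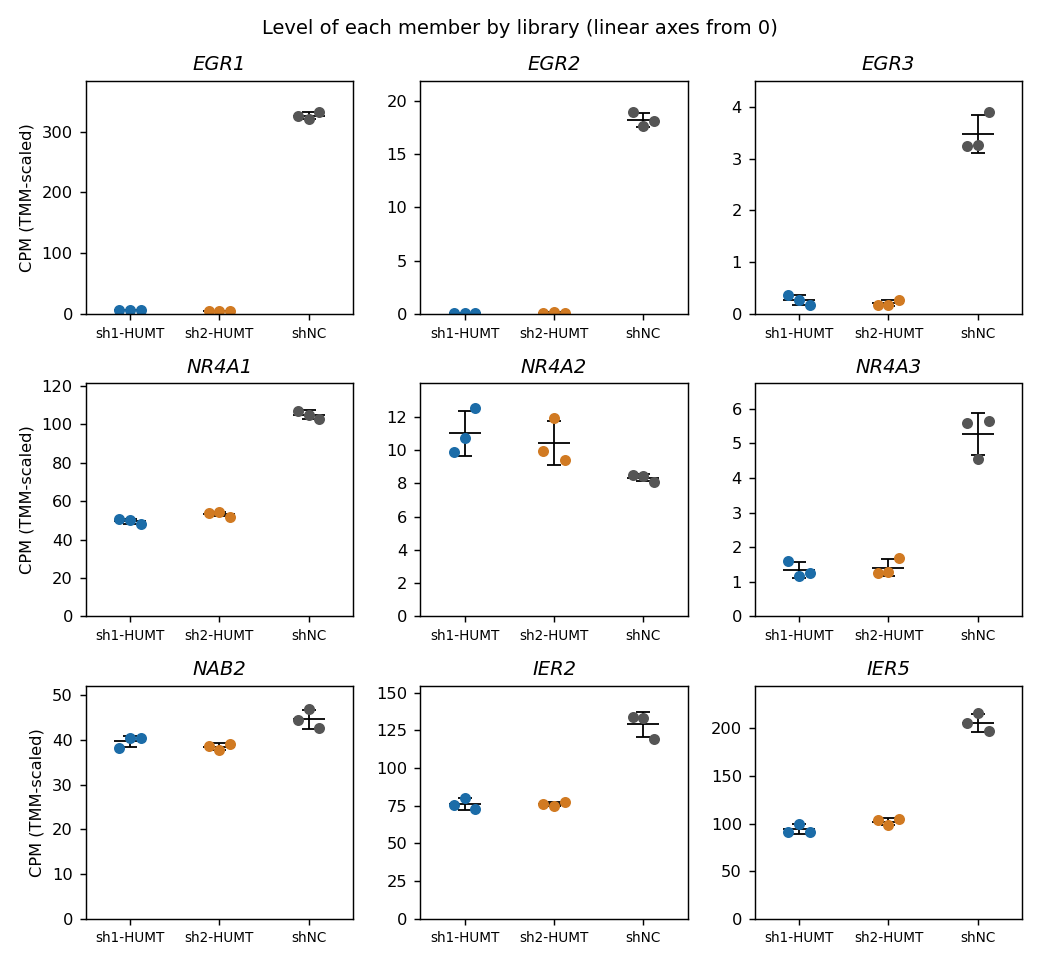
Level of each of the 9 members tested in every library, in CPM on a linear axis that starts at 0, with a panel per gene; points are libraries and bars the mean with SD of 3 libraries in sh1-HUMT, sh2-HUMT and shNC. EGR1, EGR2 and EGR3 lie near 0 in the hairpin groups, and NR4A2 is the member with its lowest values in shNC.

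The 3 NR4A receptors differed in direction. NR4A1, also called NUR77, an orphan receptor induced by growth factors and by stress, had 50.6, 50 and 48 CPM in sh1-HUMT and 53.9, 54.1 and 51.9 CPM in sh2-HUMT, against 107, 105 and 103 CPM in shNC. It was at 47.2% of the shNC level in sh1-HUMT (log2 fold change -1.08, SE 0.036) and at 50.8% in sh2-HUMT (-0.98, SE 0.036). Replicates were tight, and no hairpin library came near an shNC library.

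NR4A3, or NOR1, the receptor fused to EWSR1 in extraskeletal myxoid chondrosarcoma, was scarce but shared the direction of NR4A1. Its values were 1.6, 1.17 and 1.25 CPM in sh1-HUMT and 1.26, 1.27 and 1.7 CPM in sh2-HUMT, against 5.60, 4.56 and 5.64 CPM in shNC. It was 3.91-fold lower in sh1-HUMT (log2 fold change -1.97, SE 0.20) and 3.73-fold lower in sh2-HUMT (-1.90, SE 0.20), without overlap.

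NR4A2, or NURR1, known for its need in dopamine neurons, was the one member that stood higher with the hairpins. It had 9.88, 10.7 and 12.5 CPM in sh1-HUMT and 9.92, 11.9 and 9.39 CPM in sh2-HUMT, against 8.52, 8.43 and 8.09 CPM in shNC. The log2 fold changes were 0.40 (SE 0.11) and 0.32 (SE 0.11). The hairpin libraries were more spread than the shNC libraries, and the lowest sh2-HUMT library lay just above the highest shNC library. The ratio of NR4A1 to NR4A2 in FPKM was 5.23 ± 0.83 in sh1-HUMT, 5.81 ± 0.819 in sh2-HUMT and 12.6 ± 0.29 in shNC (SD, n = 3 each).

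IER2 and IER5 encode related nuclear proteins of the immediate early response, and both were lower with either hairpin. IER2 stood at 75.7, 80 and 72.6 CPM in sh1-HUMT and 76, 75 and 77.8 CPM in sh2-HUMT, against 134, 133 and 119 CPM in shNC. IER5, which is known to promote HSF1 activity through the phosphatase PP2A, had 91.0, 100 and 91.3 CPM in sh1-HUMT and 104, 98.3 and 105 CPM in sh2-HUMT, against 206, 216 and 197 CPM in shNC. Neither gene had overlapping groups. The log2 fold changes were -0.76 (SE 0.048) and -0.75 (SE 0.048) for IER2 in sh1-HUMT and sh2-HUMT, and -1.13 (SE 0.045) and -1.01 (SE 0.045) for IER5. IER5L, their paralog and the more abundant transcript, moved less: 240 ± 18.3 CPM in sh1-HUMT, 254 ± 8.57 CPM in sh2-HUMT and 285 ± 14.6 CPM in shNC (SD, n = 3 each). Its log2 fold change was -0.25 in sh1-HUMT (adjusted p = 0.0076, edgeR) and -0.16 in sh2-HUMT (adjusted p = 0.0484, edgeR). The sh2-HUMT call of IER5L was lost in 9 of 15 alternative fits, with adjusted p-values of 0.00714 to 0.174; leaving out any 1 sh2-HUMT library, shNC replicate 1 or 2, or sh1-HUMT replicate 1 was among them.

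IER3, a stress-inducible regulator of survival, had 0 counts in 8 libraries. In sh2-HUMT replicate 2 it had 25.63 estimated counts, or 1.18 CPM, while the other sh2-HUMT libraries, the 3 sh1-HUMT libraries and the 3 shNC libraries were at 0. A count of 0 allows up to 3 counts, or 0.135 to 0.137 CPM, for counting error only. The 25.63 estimated counts in sh2-HUMT replicate 2 lie well outside that allowance. The counts of 0 therefore need not mean that IER3 RNA was absent, and how the estimation assigned its reads was not tested. No fold is given, since its only value above 0 comes from a single library.

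**Figure D2:**
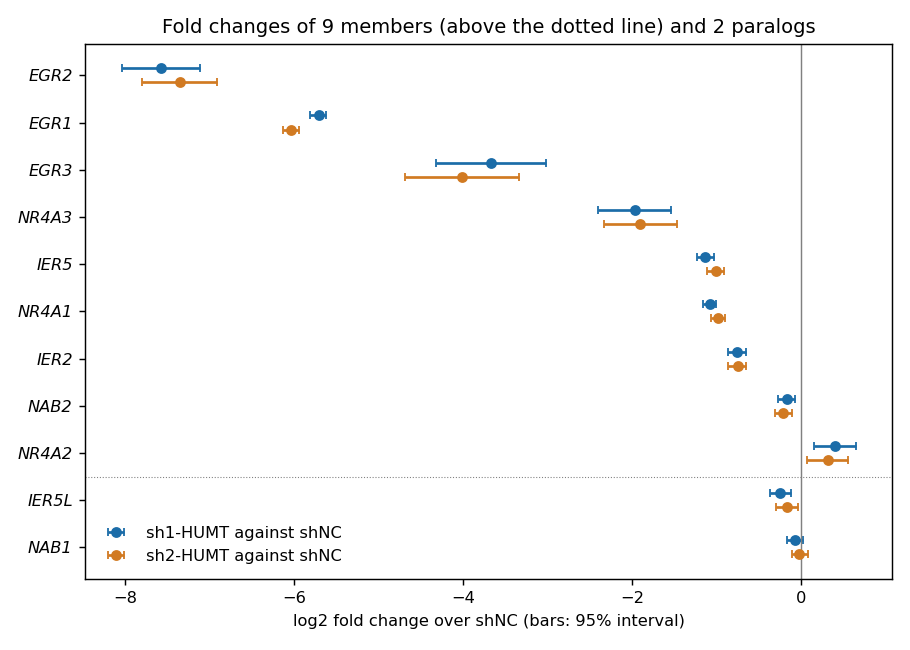
Log2 fold change over shNC of the 9 members tested and, under the dotted line, the paralogs IER5L and NAB1, for sh1-HUMT and sh2-HUMT, with 95% intervals of the edgeR fit. The EGR genes lie farthest to the left, at -7.58 to -3.67 in sh1-HUMT, and NR4A2 is the only member to the right of 0. For EGR2 and EGR3 the counting intervals in the text are wider than the fitted bars.

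In the edgeR fit across all genes (quasi-likelihood test, Benjamini-Hochberg adjusted p under 0.05), 8 of the 9 members tested were lower and 1, NR4A2, was higher in sh1-HUMT, and the same numbers held in sh2-HUMT. The NR4A2 call in sh2-HUMT was lost in 9 of 15 alternatives, DESeq2 and leaving out any 1 shNC library, sh2-HUMT replicate 1 or 2, or sh1-HUMT replicate 2 among them. Its call in sh1-HUMT was lost without sh1-HUMT replicate 3 or shNC replicate 3, and the NAB2 call in sh1-HUMT without sh1-HUMT replicate 1 or shNC replicate 2. NAB2 in sh2-HUMT and the other members tested, in both comparisons, kept their calls in all 15 alternatives. EGR2, with 1 to 4 counts in the hairpin libraries, and EGR3, with 4 to 8, passed the filter on low counts only through shNC. Because the members were chosen with these values known, their calls and the repeats are description and no test. Over all genes tested, 31.9% were called in sh1-HUMT, 16.3% lower and 15.7% higher, and 32.5% in sh2-HUMT, 16.5% lower and 15.9% higher. At least 2-fold lower were 6 members in sh1-HUMT and 5 in sh2-HUMT, against 1.11% and 1.04% of all genes. The median log2 fold change of the 9 members was -1.13 in sh1-HUMT and -1.01 in sh2-HUMT, against 0.00 over all genes in both. Since the members were selected for such values, these shares describe the choice. Counted from the most lowered of the 18540 genes, EGR2 ranked 4 in sh1-HUMT and 5 in sh2-HUMT, EGR1 12 and 9, EGR3 26 and 19, and NR4A3 80 and 80. IER5 ranked 306 and 329, NR4A1 335 and 360, and IER2 689 and 599. NAB2 lay well inside the bulk of genes, at 4993 and 4022.

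The sh2-HUMT libraries set against the sh1-HUMT libraries ask whether the members differ between the hairpins, a contrast that did not serve to choose them. None of the 9 members tested passed the threshold (edgeR, adjusted over all genes), and 0.286% of all genes did (53 genes, with 1 called without sh2-HUMT replicate 1 and 155 without sh1-HUMT replicate 2). At an unadjusted p under 0.05 there were 3 members, against 11.8% of all genes. DESeq2 called 0 of the 5 members to which it gave an adjusted p. EGR1 came nearest to the threshold, at 4.94 ± 0.22 CPM in sh2-HUMT and 6.20 ± 0.318 CPM in sh1-HUMT (SD, n = 3 each), with libraries that did not overlap. On the log2 scale it differed by -0.33 (95% interval -0.47 to -0.18, adjusted p = 0.143, edgeR), and the adjusted p ran from 0.0644 to 0.387 over 15 alternatives.

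NR4A1 and IER5 leaned the other way. NR4A1 differed by 0.11 on the log2 scale (interval 0.02 to 0.19, adjusted p = 0.287, edgeR) and IER5 by 0.12 (0.02 to 0.22, adjusted p = 0.326, edgeR), both higher in sh2-HUMT without passing the test. For IER2 the difference was 0.00 with an interval of -0.10 to 0.11 (adjusted p = 0.991, edgeR). The rarest transcripts allow the least. EGR2 differed by 0.22 with an interval of -0.82 to 1.26 (adjusted p = 0.946, edgeR), which reaches past 2-fold higher in sh2-HUMT. EGR3 differed by -0.35 with an interval of -1.18 to 0.49 (adjusted p = 0.84, edgeR), which reaches past 2-fold lower in sh2-HUMT. NAB2, NR4A2 and NR4A3 differed by -0.05, -0.09 and 0.07, with adjusted p-values of 0.763, 0.819 and 0.937 (edgeR).

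The deposited FPKM values, which divide by transcript length, allow the members to be ranked against each other within a group. In sh1-HUMT the order began with IER5 at 39.4 ± 1.81 FPKM and IER2 at 37.7 ± 1.63, whose libraries overlapped, and went on with NR4A1 at 17.8 ± 0.645, NAB2 at 11.9 ± 0.418 and NR4A2 at 3.45 ± 0.459. EGR1 came only after these, at 1.99 ± 0.127 FPKM, followed by NR4A3 at 0.22 ± 0.0265 and by EGR3 and EGR2, which overlapped at 0.06 ± 0.02 and 0.0433 ± 0.0231 (SD, n = 3 for each). The order in sh2-HUMT was IER5, IER2, NR4A1, NAB2, NR4A2, EGR1, with EGR1 at 1.6 ± 0.0702 FPKM and no overlap among these neighbours. IER3 and NR4A3 followed and overlapped, as did EGR3 and EGR2.

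In shNC the order was another one. EGR1 led at 102 ± 1.48 FPKM, above IER5 at 85.0 ± 5.01, IER2 at 61.4 ± 4.18, NR4A1 at 30.3 ± 1.1 and NAB2 at 12.5 ± 0.581. EGR2 came next at 6.04 ± 0.306 FPKM, above NR4A2 at 2.40 ± 0.0321, while NR4A3 at 0.853 ± 0.112 and EGR3 at 0.77 ± 0.0819 overlapped (SD, n = 3 for each). EGR1 thus held the sixth place in either hairpin group and the top place in shNC. The 10 members together summed to 112 ± 3.67 FPKM in sh1-HUMT, 116 ± 1.78 in sh2-HUMT and 301 ± 9.14 in shNC, and EGR1 gave 1.78%, 1.39% and 33.8% of these sums. The 3 NR4A genes summed to 21.4 ± 0.22 FPKM in sh1-HUMT, 22.1 ± 0.585 in sh2-HUMT and 33.6 ± 1.19 in shNC.

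**Figure D3:**
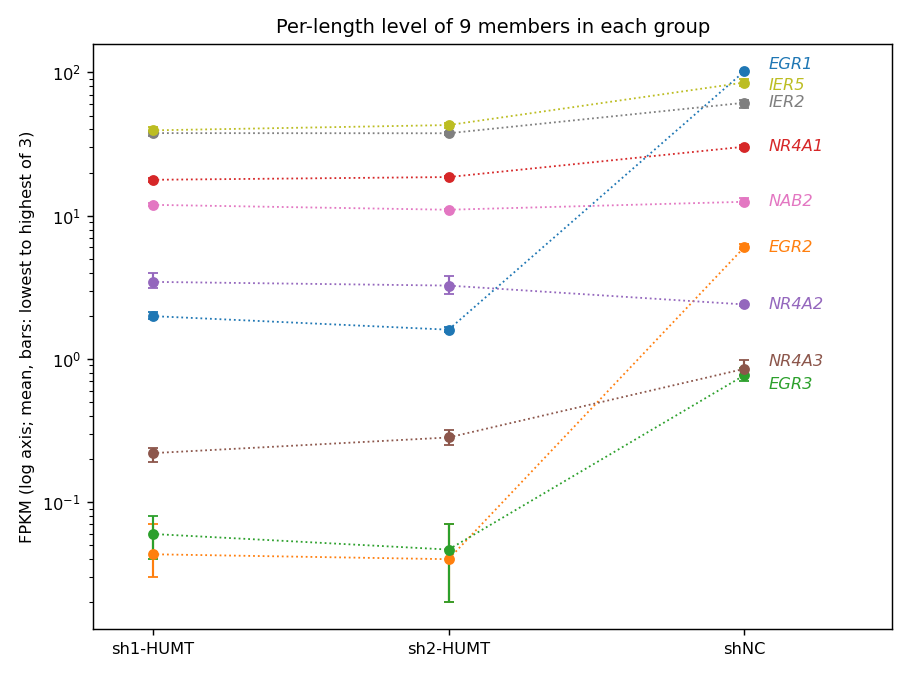
Per-length level (FPKM, log axis) of the 9 members tested in sh1-HUMT, sh2-HUMT and shNC; points are means, bars run from the lowest to the highest of 3 libraries, and dotted lines join the values of a gene. EGR1 lies at 1.99 and 1.6 FPKM with the hairpins and at 102 FPKM in shNC, where it leads, whereas NAB2 stays between 11 and 12.5 FPKM.

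For NR4A1 the deposited counts and FPKM values did not move alike. Its CPM in sh1-HUMT and sh2-HUMT were 47.2% and 50.8% of shNC, but its level was 17.8 ± 0.645 FPKM in sh1-HUMT and 18.6 ± 0.197 FPKM in sh2-HUMT against 30.3 ± 1.1 FPKM in shNC (SD, n = 3 each). Dividing count by FPKM and depth gives the transcript length that the estimation used, an abundance-weighted mean over a gene's transcripts. This measure was chosen after the data were seen. For NR4A1 it was 2818, 2798 and 2854 bases in sh1-HUMT and 2902, 2912 and 2856 bases in sh2-HUMT, against 3331, 3382 and 3435 bases in shNC.

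The hairpin libraries were thus at 83.5% and 85.4% of the shNC length, with no overlap. Among 8208 genes with at least 5 FPKM in every library, 0.743% in sh1-HUMT and 0.658% in sh2-HUMT were at least 10% shorter without overlap. The length of NR4A2 differed by -4.29% in sh1-HUMT and -4.74% in sh2-HUMT, that of EGR1 by 0.573% and -0.499%, and that of IER5 by 1.96% and 1.64%. The table gives no values per transcript, so which NR4A1 transcripts differ was not analysed here.

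**Figure D4:**
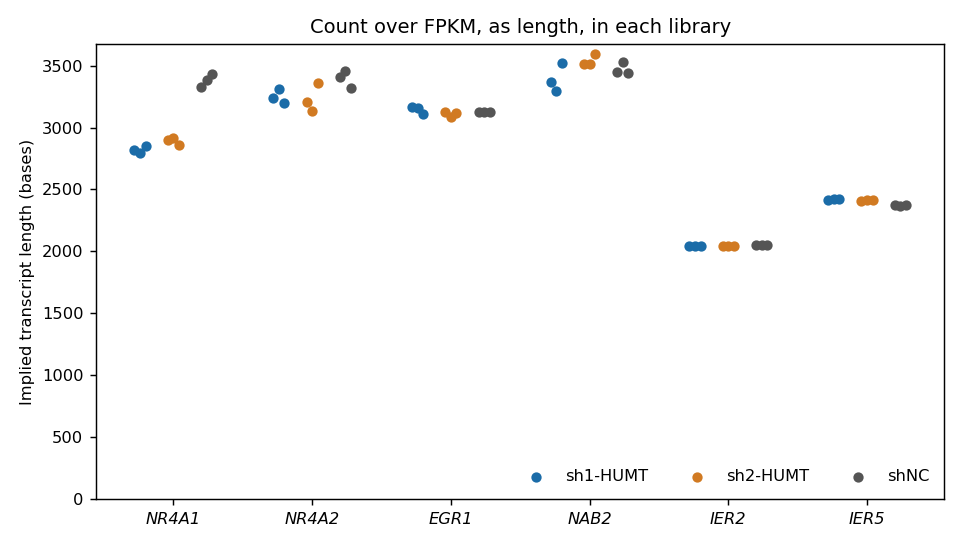
Transcript length in bases implied by the deposited count and FPKM, on an axis from 0, for the 6 members with the most counts; points are libraries of sh1-HUMT, sh2-HUMT and shNC. The NR4A1 means of the hairpin groups stand at 83.5% and 85.4% of the shNC mean, and those of the other members shown lie within 5% of theirs.

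Likeness to each member was measured as the Euclidean distance between log2 CPM profiles over the 9 libraries, each centred on its own mean, among 12553 genes with a mean of at least 5 CPM. Within the members, EGR1 and EGR2 were nearest to each other, at 1.43, and NR4A1 and IER5 at 0.19. Outside them, the genes nearest to EGR1 were FOSB, a partner of JUN in AP-1, at 1.95, the HSP70 genes HSPA1B and HSPA1A at 2.58 and 2.65, FOS at 2.73 and the stress factor ATF3 at 2.79. HSPA1A and HSPA1B have nearly the same sequence, and how the estimation divided reads over this pair is uncertain. NR4A1 was nearest to ID2, an inhibitor of helix-loop-helix factors, at 0.12, then to the splicing kinase CLK1 at 0.17 and the protease inhibitor SERPINE2 at 0.171. IER5 was nearest to S100P at 0.191, ID3 at 0.195 and ID2 at 0.206. NAB2 was nearest to MEX3C at 0.0641, ASCC1 at 0.0818 and TXNRD1 at 0.0824. These profiles share their libraries, and the distances mostly reflect the size of the step between the hairpin groups and shNC.

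Other immediate early genes were widely lower as well. Of 54 on the list, 52 were tested; 35 fell and 4 rose in sh1-HUMT, and 38 fell and 4 rose in sh2-HUMT, which is 75% and 80.8% called against 31.9% and 32.5% of all genes. Their median log2 fold change was -0.43 in sh1-HUMT and -0.58 in sh2-HUMT, against 0.00 over all genes. The genes lowered most were AP-1 subunits and ATF3. FOSB fell to 6.90 ± 0.701 CPM in sh1-HUMT and 6.95 ± 0.154 in sh2-HUMT, against 162 ± 4.5 CPM in shNC (SD, n = 3 each; log2 fold changes -4.55 and -4.54). FOS changed by -3.95 and -3.96, ATF3 by -3.79 and -4.02 and JUN by -3.18 and -3.48, with adjusted p-values of at most 5.7e-14 (edgeR). The genes that rose most were CITED2, a regulator of the coactivators CBP and p300, by 0.39 and 0.46, KLF2 by 0.32 and 0.31, the antiproliferative gene BTG2 by 0.28 and 0.21, and the NF-kB inhibitor NFKBIA by 0.18 and 0.22 (adjusted p of at most 0.00662, edgeR). NR4A2 was thus not alone in being higher. The list, like the others here, was written with earlier results of these data known.

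Genes that carry signals to immediate early promoters showed no such tilt. Of 33, 5 fell and 6 rose in sh1-HUMT (33.3% called) and 7 fell and 7 rose in sh2-HUMT (42.4%), with medians of 0.02 and -0.03. Over all genes, 31.9% and 32.5% were called. RPS6KA5, the kinase MSK1 that phosphorylates CREB and histone H3, fell by 0.47 and 0.66 on the log2 scale (adjusted p = 1.7e-04 and 1.2e-05, edgeR), and BRAF, the kinase above MEK, by 0.48 in both (5.0e-04 and 4.8e-04). RPS6KA1, the ERK-activated kinase RSK1, rose by 0.29 and 0.32 (adjusted p = 0.00264 and 0.00122, edgeR), and MAP2K3, which activates p38, by 0.26 and 0.34 (0.00138 and 2.1e-04). NRAS had log2 fold changes of -0.82 and -0.45 but varied widely between libraries, and was not called (adjusted p = 0.346 and 0.612, edgeR).

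Reported target genes of EGR1 moved both ways, with more lower than higher. Of 20, 9 fell and 3 rose in sh1-HUMT (60% called), and 9 fell and 5 rose in sh2-HUMT (70%). Over all genes, 31.9% and 32.5% were called, 16.3% and 16.5% lower. Of the targets, 7 were lower in both comparisons and 2 were higher in both. Their medians of -0.05 and -0.09 lay close to that of all genes. GDF15, a secreted stress hormone, had 340 ± 18.3 CPM in sh1-HUMT and 299 ± 8.11 CPM in sh2-HUMT, against 623 ± 20.1 CPM in shNC (SD, n = 3 each; log2 fold changes -0.87 and -1.06). VEGFA, the angiogenic growth factor, fell by 0.54 and 0.47, and for this pair of genes the adjusted p was at most 2.9e-07 (edgeR). PDGFB, a chain of platelet-derived growth factor, rose in sh2-HUMT by 0.46 (adjusted p = 0.00827, edgeR) and had a log2 fold change of 0.25 in sh1-HUMT (adjusted p = 0.113, edgeR). The adhesion molecule gene ICAM1 rose in sh2-HUMT by 0.24 (adjusted p = 0.00964, edgeR) and stood at 0.15 in sh1-HUMT (adjusted p = 0.0794, edgeR). The PDGFB value in sh1-HUMT passed the threshold without sh1-HUMT replicate 2. F3, tissue factor, changed by -0.52 and -0.49 (adjusted p = 0.034 and 0.0451, edgeR), but lost its call in 6 and 9 of 15 alternatives. Among these, leaving out any 1 shNC library or sh1-HUMT replicate 1 ended the call in both comparisons, sh1-HUMT replicate 2 that of sh1-HUMT, and sh2-HUMT replicate 1 or 3 that of sh2-HUMT, with adjusted p-values of up to 0.113 and 0.167.

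Of 12 nuclear receptor partners of NR4A proteins, 11 were tested. In sh1-HUMT 1 fell and 5 rose, and in sh2-HUMT 1 fell and 4 rose. That is 54.5% and 45.5% called, against 31.9% and 32.5% of all genes. The medians were 0.09 and 0.07, against 0.00 over all genes. The chromatin remodeller CHD4 rose by 0.20 and 0.22 (adjusted p = 0.0098 and 0.00619, edgeR). Without sh1-HUMT replicate 3 or shNC replicate 2, 2 and 3 partners in all were called in sh1-HUMT in place of 6. RCOR1 was the one that fell, by 0.12 and 0.19 (adjusted p = 0.0442 and 0.00367, edgeR), and its sh1-HUMT call was lost in 12 of 15 alternatives (adjusted p of 0.0382 to 0.162), with any 1 library left out except sh1-HUMT replicate 1. All 16 HSF1 target genes fell in both comparisons, with medians of -1.07 in sh1-HUMT and -0.99 in sh2-HUMT. Over all genes, 16.3% were called lower in sh1-HUMT and 16.5% in sh2-HUMT. HSP90AB1, a constitutive HSP90 gene, changed by -0.17 and -0.19 and the inducible chaperone HSPA6 by -8.97 and -9.20 (adjusted p of at most 1.6e-04 for this pair, edgeR).

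**Figure D5:**
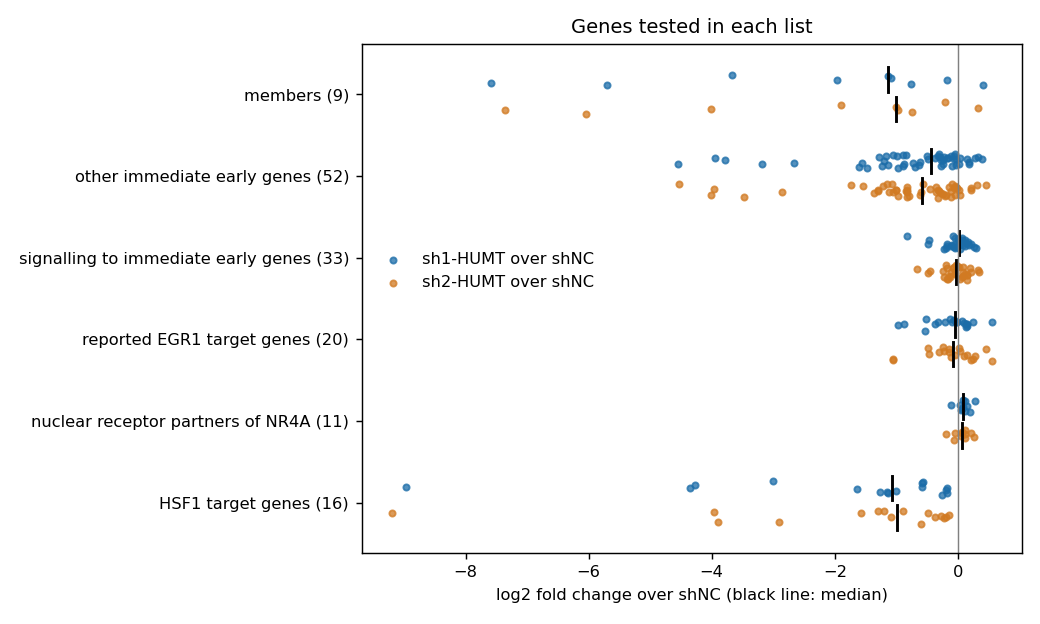
Log2 fold change over shNC of each gene tested, for the members and 5 lists, in sh1-HUMT and sh2-HUMT; points are genes and black lines medians. The medians of the members, the other immediate early genes and the HSF1 target genes lie left of 0, and those of the signalling genes, EGR1 target genes and NR4A partners lie within 0.1 of it.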

How the data were processed

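RNA was measured in 9 libraries prepared by the BGI500 protocol, per the labels' protocols. The authors deposited 1 table with estimated counts (expected counts with decimals) and an expression value per gene and library. That value is read as FPKM from the table itself: in 260 genes with 1 transcript, the length it implies was a median of 1.002 times the annotated one. Of these genes, 63.8% lay within 20% of the annotated length. Per the submitters' processing notes, the tools were RSEM 1.2.12, Bowtie2 2.2.5, HISAT2 2.0.4 and DESeq2 1.4.5, with no role stated. A genome build was not given in the sources used here. The column headers name A549, NC, Si_1 and Si_2, and each was joined to the sample title with that arm and number. The deposited design text describes another study and was not used, nor were 6 columns of group averages.

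Counts were rounded and tested with edgeR 4.0.16 in R 4.3.3 (TMM, filterByExpr, robust quasi-likelihood test, all 9 libraries in 1 fit, Benjamini-Hochberg adjustment, threshold 0.05). The biological coefficient of variation was 7.02%. The steps were tested on simulated counts. The deposited FPKM values were used only for levels, sums, ranks, ratios and implied lengths, and log2 CPM (prior count 2) for likeness. Summed over all genes, FPKM ran from 432557 to 448050 in the hairpin libraries and from 461635 to 465917 in shNC. FPKM levels and sums set between groups were not adjusted for this. Strand use in counting is not stated, so reads from a gene and from an overlapping or antisense one may be mixed. Whether replicates came from separate cultures is not labelled, and p-values then reflect only how these samples vary, which may be technical. Replicate numbers did not pair the libraries.

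The members and lists were chosen with earlier results of these data known. Named were all members, their paralogs, HUMT, genes at both ends of each list (4 lowest and 4 highest by mean log2 fold change, a part of which is printed; some are not reported here) and the genes nearest to EGR1, NR4A1, NAB2 and IER5. Alternatives were DESeq2 1.42.0, its size factors, upper-quartile scaling, no filter, a replicate block, only the groups compared, a fold minimum and leaving out each library; a 100-base window was the alternative for motifs.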

Additional observations from a re-analysis of the deposited data

Results flagged for a closer look

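Of the listed genes whose effects differed between the hairpins, by the test of sh2-HUMT against sh1-HUMT (edgeR, adjusted over all genes), 4 are given here with their values. HSPA1A, an inducible HSP70 gene, was higher in sh2-HUMT by 0.37 on the log2 scale (adjusted p = 0.00232), at 74.9 ± 1.02 CPM in sh2-HUMT and 57.9 ± 2.63 CPM in sh1-HUMT, and was called in all 15 alternatives. Its near-identical copy HSPA1B was higher by 0.39 (adjusted p = 0.0213, called in 8 of 15 alternatives, 9.0e-12 to 0.126), at 59.7 ± 1.7 and 45.6 ± 4.39 CPM. JUN differed by -0.30 (adjusted p = 0.0165, called in 11 of 15, 6.2e-07 to 0.105), at 32.4 ± 1.25 and 40 ± 2.24 CPM. PPP1R15A, a phosphatase subunit that reverses eIF2alpha phosphorylation, differed by -0.19 (adjusted p = 0.0309, called in 7 of 15, 1.8e-04 to 0.138), at 72.5 ± 0.679 and 82.8 ± 1.0 CPM (sh2-HUMT and sh1-HUMT in that order, SD, n = 3 each). In each of these genes, all 3 sh2-HUMT libraries lay on one side of all 3 sh1-HUMT libraries. The genes were picked by the test on these same libraries, so this separation largely follows from the choice and adds no support. Leaving out any 1 sh2-HUMT library ended the calls of HSPA1B, JUN and PPP1R15A, and so did sh1-HUMT replicate 1 or shNC replicate 1 for HSPA1B and PPP1R15A, and sh1-HUMT replicate 3 for PPP1R15A.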

How the results depend on the processing

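The fold changes of the 9 members against shNC kept their direction under all 15 alternatives, with EGR2 at -7.67 to -7.55 in sh1-HUMT and -7.96 to -7.02 in sh2-HUMT. With a fold minimum of log2 1, the genes called dropped to 361 in sh1-HUMT against shNC (5923 without it), 372 in sh2-HUMT against shNC (6019) and 2 in sh2-HUMT against sh1-HUMT (53). Within the lists it left 14 and 17 other immediate early genes in sh1-HUMT and sh2-HUMT, 0 and 0 signalling genes, 0 and 2 EGR1 targets, 9 and 8 HSF1 targets, and 0 and 0 NR4A partners. The 53 calls between the hairpins became 369 with DESeq2 and 35 with only the groups compared, and ran from 1, without sh2-HUMT replicate 1, to 155, without sh1-HUMT replicate 2; leaving out shNC replicate 2 or 3 alone kept them within 1.5 times. The replicate block gave 5717, 5778 and 29 calls; same-numbered libraries correlated at -0.025 to 0.05 and 4 of 9 libraries correlated best with their own number, so the numbers do not pair them. Called NR4A partners in sh1-HUMT (6) ran from 2, without sh1-HUMT replicate 3, to 6 when a library was left out, with 3 without shNC replicate 2. Upper-quartile scaling split the calls into 3276 higher and 2691 lower in sh1-HUMT and 3255 and 2731 in sh2-HUMT, against 2902 and 3021, and 2956 and 3063. The few counts of EGR2 and EGR3 in the hairpin groups limit how closely their fold changes are known.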
